A study of Homo sapiens with 32 samples.

Results

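Paclitaxel was compared with vehicle in HEC265, a human endometrial cancer cell line labelled CTNNB1-mutated, that is, mutated in the gene of beta-catenin. The comparison held 4 libraries, 2 of cells given 5.6 nM paclitaxel for 24 h and 2 of cells given vehicle (0.1% DMSO) for 24 h, of 32 libraries in the whole series. They were taken by cell line and treatment from the sample titles. A further 4 HEC265 libraries, 2 with 149 nM SM08502 and 2 with both drugs at those doses, all for 24 h, set the spread between replicates and gave a second paclitaxel contrast, combination against SM08502. Each dose was labelled as the one that inhibits viability of the line by 50%, and paclitaxel was 11, 6 and 11.7 nM in the other 3 lines, Ishikawa, Ishikawa-S33Y and SNGM. SM08502 is an inhibitor of CLK kinases, the enzymes that phosphorylate SR proteins and so steer splicing. The labels say that cells were plated in duplicate, and do not say whether the duplicates were separate experiments, so p values measure only the spread between these samples, which may be technical.

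Paclitaxel is a taxane that binds beta-tubulin inside the microtubule and stabilises the polymer. Dividing cells then build faulty spindles, are held by the spindle checkpoint, and may die, leave mitosis without dividing, or divide abnormally. The transcription factor p53 is activated after prolonged or faulty mitosis and after DNA damage, and it turns on genes of cell cycle arrest and of cell death. Free tubulin dimers also control the stability of their own mRNAs, and histone mRNAs accumulate only while DNA is replicated, so both groups are described along with the p53 targets.

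Values were reads per 1000000 counted (CPM), tested as differences of log2(CPM + 1), so that 1 unit is a doubling and low genes are compressed. Depth was 20.9 to 27.7 M reads in the 8 HEC265 libraries and 22.5 to 25.9 M in the 4 compared. All 10 epithelial markers looked up (EPCAM, CDH1, KRT8 and others) were above 1 CPM, with summed levels of 3120 and 3121 CPM in vehicle and 3357 and 3209 CPM in paclitaxel. Of 7 endometrial lineage markers, 5 including PAX8 and SOX17 were above 1 CPM, whereas the hormone receptor genes ESR1 and PGR were not. Fibroblast markers summed to at most 8.68 CPM, leukocyte markers to 9.65 to 10.8 CPM in the compared libraries and up to 52.3 CPM with SM08502 or both drugs (most of it CD68, at 34.3 to 50.4 CPM there), and endothelial markers to at most 2.14 CPM. LUM, CD2 and TYROBP had 0 reads in all 8. The share of reads from mitochondrially encoded genes was 6.43% and 6.84% in vehicle and 5.29% and 5.87% in paclitaxel. In such bulk samples, fewer cells in a state and less RNA per cell cannot be told apart.

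Few genes passed the test for paclitaxel against vehicle as reported, and those differed by small amounts. Most of the genes that passed the test rose, and they included 12 targets of p53, among them the cell cycle inhibitor CDKN1A, the p53 ubiquitin ligase MDM2 and the death genes FAS and BBC3. Genes of the NF-kappaB pathway (CXCL8, TNFAIP3, BIRC3) also rose, and WNT5A, HIPK2 and a pair of histone genes fell. Of 13235 genes tested with limma, 31 rose and 4 fell at an adjusted p under 0.05, which is 0.264% of the genes tested. None of the 35 changed by 2-fold or more: their median absolute difference was 0.34 on the log2 scale and the largest was 0.72. Before adjustment, 1316 genes (9.94%) were higher and 388 (2.93%) lower at p under 0.05. The median over all genes tested was 0.034. Both paclitaxel libraries lay above both vehicle libraries for 4328 genes (32.7%) and below both for 2065 (15.6%). With 2 against 2 samples the smallest exact permutation p is 0.333, so every call rests on the spread pooled over HEC265 groups and genes.

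The number of calls depended on the settings of the fit. Calls numbered 1 with the spread and the filter taken over all 32 libraries together, 0 without a filter on low values, 0 without the intensity trend, 0 when only the filter was taken over all 32 libraries, 420 with only the 4 compared libraries and 40 with limma voom on recovered reads. At the limma settings with 0 calls, 1600, 1127 and 1442 genes were higher and 634, 334 and 508 lower before adjustment. Leaving out any 1 of the 4 compared libraries left a group with 1 library. Each time most of the 35 genes lost their call, and some genes outside the 35 gained one. Each of the 35 genes kept its call under 4 to 13 of 17 alternative settings, and none changed direction under any of them. Most of these settings could not have turned a direction, so little is read from that. Spread, filter and moderation leave the difference itself unchanged. The groups of all 35 genes did not overlap, so leaving out 1 replicate cannot turn it, and only re-scaling could. The balance of directions depended on scaling. When each library was re-centred on its median there were 13 genes higher and 11 lower, of which 17 were among the 35. Before adjustment there were 528 and 1163. Under quantile normalization there were 13 and 2, all among the 35, with 771 and 721 before adjustment. With CPM recomputed without the mitochondrially encoded genes, whose share differed between the groups, there were 18 and 4, all among the 35, with 1057 and 579 before adjustment. With voom there were 30 and 10, and 30 of these 40 calls were among the 35.

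**Figure D1:**
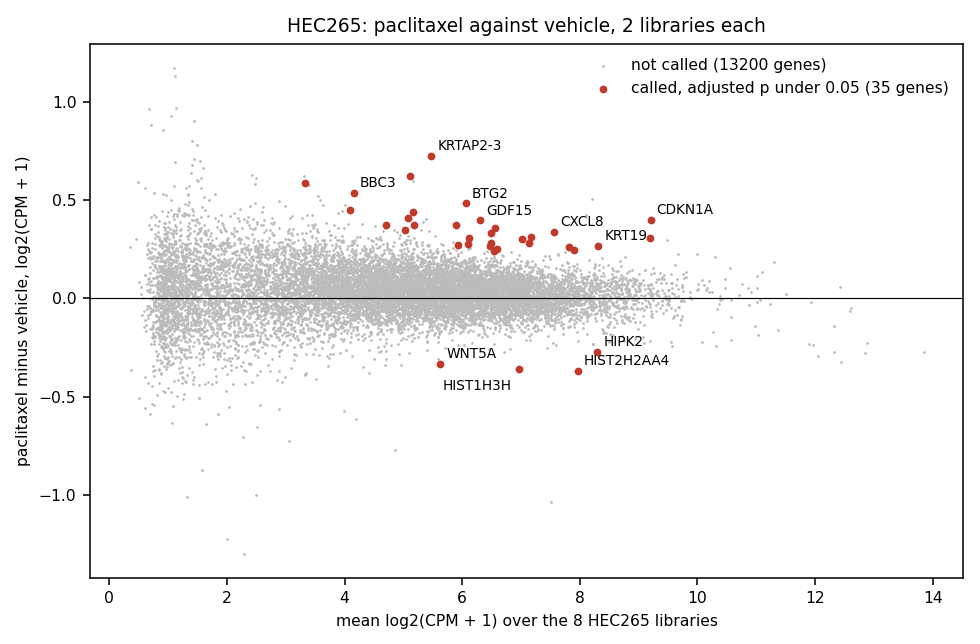
Difference between paclitaxel and vehicle in log2(CPM + 1), vertical axis, against the mean log2(CPM + 1) over the 8 HEC265 libraries, horizontal axis, with 1 point per gene tested and the 35 called genes in red. The 31 genes that rose and the 4 that fell lie within 0.72 of 0, at intermediate and high levels.

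The p53 targets were the group with the most calls. Of 28 listed, 27 passed the filter (SPATA18 did not), 12 rose and none fell, against the background of 0.264% of all genes called. The paclitaxel minus vehicle difference was positive for all 27 (for 8278 of 13235 genes tested), with a range of 0.03 to 0.54 and a median of 0.28 beside 0.034 over all genes. Before adjustment 24 were higher, beside 9.94% of all genes, and in 24 both paclitaxel libraries lay above both vehicle libraries, beside 32.7%. Over the settings tried the list median stayed between 0.23 and 0.32, while the number called ranged from 0 to 21.

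Genes of cell cycle arrest and p53 feedback were as follows. CDKN1A, which encodes the cyclin-dependent kinase inhibitor p21 (GRCh38.p14 chromosome 6, 36676463 to 36687332), had 429 and 404 CPM in vehicle and 548 and 553 CPM in paclitaxel. Both treated libraries were above both controls, and the difference was 0.40 ± 0.051 (SE, n = 2 against 2; limma adjusted p = 0.00214). BTG2, an antiproliferative gene on chromosome 1 (203305519 to 203309602), had 46.8 and 43.2 CPM in vehicle against 62.9 and 63.6 CPM in paclitaxel. The groups did not overlap, and the difference of 0.48 ± 0.0562 (limma adjusted p = 0.00108) was a 1.40-fold rise. MDM2, whose product marks p53 for degradation, had 494 and 488 CPM against 592 and 625 CPM, a difference of 0.31 ± 0.0473 (limma adjusted p = 0.00926). The stress response gene SESN1 rose from 26.2 and 24.98 CPM to 35.4 and 34.8 CPM, by 0.44 ± 0.0697 (limma adjusted p = 0.0126). GDF15, a secreted stress cytokine, rose from 46.3 and 46.9 CPM to 62.3 and 61.2 CPM, by 0.40 ± 0.051 (limma adjusted p = 0.00214). For each of these called genes the duplicates lay closer together than the groups, which being called favours, so it is no added evidence. ZMAT3 (0.27) and RRM2B (0.24), the latter a p53-induced subunit of ribonucleotide reductase, were also called, and both were picked out here after their values were seen.

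Genes of cell death rose by similar amounts. FAS, a death receptor on chromosome 10 (88964050 to 89017059), had 75.2 and 71.5 CPM in vehicle and 95.3 and 93.1 CPM in paclitaxel. The groups did not overlap, and the difference was 0.36 ± 0.048 (limma adjusted p = 0.00268). BBC3 encodes PUMA, a BH3-only protein that triggers mitochondrial apoptosis, and had 11.7 and 11.6 CPM against 18.6 and 16.1 CPM. Its difference of 0.54 ± 0.0897 (limma adjusted p = 0.0182) was the largest of the p53 targets, although its paclitaxel libraries were further apart than its vehicle libraries. AEN, an apoptosis-enhancing nuclease, rose from 42.2 and 41.5 CPM to 55.5 and 53.7 CPM, by 0.37 ± 0.0533 (limma adjusted p = 0.00484). EDA2R, a receptor of the tumour necrosis factor family, rose from 24.2 and 25.5 CPM to 33.3 and 31.8 CPM, by 0.38 ± 0.0626 (limma adjusted p = 0.0182). The death receptor gene TNFRSF10B, named after its values were seen, had 124 and 126 CPM against 157 and 148 CPM, and its decoy relative TNFRSF10D, named likewise, differed by 0.37 (limma adjusted p = 0.0436). Of the 35 called genes, 18 overlap another gene in RefSeq (CDKN1A with DINOL, FAS with ACTA2 and FAS-AS1, MDM2 with CPM), and the strand of counting is not given in the sources used here.

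The BCL2 family as a whole did not follow BBC3. Of 14 members tested, BBC3 alone was called, beside 0.264% of all genes. Before adjustment 4 were higher, beside 9.94% of all genes, and the median difference was 0.02 beside 0.034 over all genes. The effector gene BAX had 36.1 and 39.0 CPM in vehicle and 51.0 and 43.1 CPM in paclitaxel, a difference of 0.32 (limma adjusted p = 0.107), and the other effector, BAK1, differed by 0.28 (limma adjusted p = 0.16). The guardians MCL1 and BCL2L1, which hold these effectors in check, differed by 0.13 and 0.01 (limma adjusted p = 0.292 and 0.928). PMAIP1, SESN2 and CCNG1 are named because they were the p53 targets whose groups overlapped, which was seen first. PMAIP1, a BH3-only gene, had 44.6 and 49.3 CPM against 46.7 and 49.6 CPM. SESN2 had 53.6 and 49.0 CPM against 49.9 and 54.6 CPM, and CCNG1, the gene of cyclin G1, had 226 and 217 CPM against 225 and 237 CPM.

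**Figure D2:**
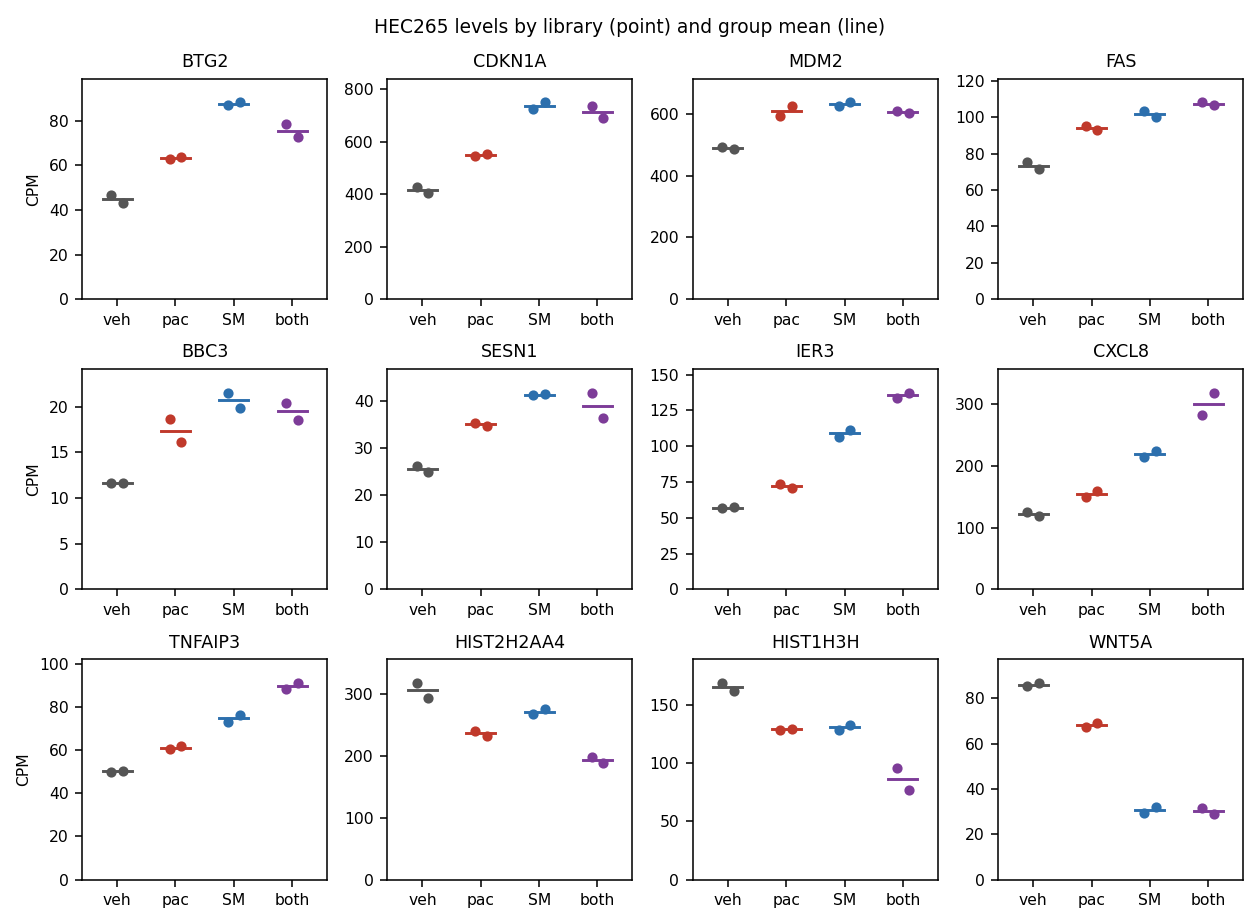
CPM of 12 genes in each HEC265 library (points) with the group mean (line) for vehicle, paclitaxel (pac), SM08502 (SM) and the combination (both), each axis starting at 0. CDKN1A was at 404 and 429 CPM in vehicle and 548 and 553 CPM in paclitaxel, and HIST1H3H fell from 162 and 168 CPM to 128 and 129 CPM.

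The promoter of AEN is shown because it carries, just before the start used here, a match to the p53 half-site, the decamer to which a p53 dimer binds. That start lies inside the RefSeq span of the gene (88604683 to 88632281) rather than at its first base. The sequence is from RefSeq (GRCh38.p14, chr15:88621090-88621339, plus strand, the 250 bases before the start), written 5′ to 3′ with the matching letters in capitals. Positions count from the start, with -1 the base before it, and the match lies at -34 to -25.
AEN: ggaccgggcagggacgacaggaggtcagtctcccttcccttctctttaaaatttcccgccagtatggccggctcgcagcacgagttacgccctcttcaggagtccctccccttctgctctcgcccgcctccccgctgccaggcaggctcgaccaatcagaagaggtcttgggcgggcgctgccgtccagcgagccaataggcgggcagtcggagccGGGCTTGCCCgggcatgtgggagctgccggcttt
The half-site was searched on both strands in windows of 250 bases before to 50 bases after the start. It was found in 6.54% of 27305 RefSeq windows, in 5.27% of the 9714 windows of genes tested, in 3 of the 22 windows available for p53 targets and in 2 of the 22 available for genes that rose. Most p53 targets thus have no match in these windows, which says nothing of sites elsewhere.

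Among NF-kappaB and inflammatory genes, 3 rose. NF-kappaB is a family of transcription factors freed by inflammatory and stress signals, and its targets include chemokines, its own inhibitors and survival factors. Of 15 listed genes tested (of 22), 3 rose and none fell, against 0.264% of all genes called, and 7 were higher before adjustment, against 9.94%. The median difference was 0.16, with 13 of 15 positive and 12 higher without overlap between the groups, beside 32.7% of all genes. Over the settings tried 0 to 4 members were called, with 0 under median re-centring, under quantile normalization and without any 1 of the 4 libraries, while the median stayed between 0.11 and 0.16. CXCL8, which encodes the neutrophil-attracting chemokine interleukin-8, had 126 and 118 CPM in vehicle and 150 and 159 CPM in paclitaxel. Its groups did not overlap, and the difference was 0.34 ± 0.0578 (limma adjusted p = 0.0206). TNFAIP3 encodes A20, a brake on NF-kappaB signalling, and rose from 50.0 and 50.4 CPM to 60.3 and 61.9 CPM, by 0.28 ± 0.0506 (limma adjusted p = 0.0332). BIRC3, an inhibitor of apoptosis protein, rose from 63.7 and 61.3 CPM to 74.6 and 74.8 CPM, by 0.25 ± 0.0484 (limma adjusted p = 0.04). These calls were kept under 7, 6 and 5 of 17 alternatives, respectively. NFKBIA and IL32 are named after their values were seen. NFKBIA, the gene of the inhibitor IkappaB-alpha, had 113 and 107 CPM against 109 and 114 CPM, and its groups overlapped. NFKB2 (0.19, limma adjusted p = 0.197) and IL32 (0.16, limma adjusted p = 0.21) did not pass.

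The promoters of these 3 genes are shown for the NF-kappaB decamer and for the AP-1 heptamer TGANTCA, which is read by FOS and JUN proteins. They are from RefSeq (GRCh38.p14, plus strand, the 250 bases before the start), at chr6:137867009-137867258 for TNFAIP3, chr11:102317234-102317483 for BIRC3 and chr4:73740319-73740568 for CXCL8. The start used for TNFAIP3 lies inside the RefSeq span of the gene (137866349 to 137883312), whereas BIRC3 and CXCL8 start at the first base of theirs. Capitals mark NF-kappaB decamers in TNFAIP3 and BIRC3 and the AP-1 heptamer in CXCL8. Only full matches to a strict form of the decamer are marked, so a site that departs from it by a letter is not. The lack of a marked decamer in CXCL8 therefore does not mean that its promoter lacks an NF-kappaB site.
TNFAIP3: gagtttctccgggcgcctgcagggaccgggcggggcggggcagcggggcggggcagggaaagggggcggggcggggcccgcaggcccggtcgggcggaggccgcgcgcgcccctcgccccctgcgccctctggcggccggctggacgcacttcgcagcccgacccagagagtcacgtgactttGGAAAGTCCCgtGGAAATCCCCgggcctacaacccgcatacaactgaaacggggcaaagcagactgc
BIRC3: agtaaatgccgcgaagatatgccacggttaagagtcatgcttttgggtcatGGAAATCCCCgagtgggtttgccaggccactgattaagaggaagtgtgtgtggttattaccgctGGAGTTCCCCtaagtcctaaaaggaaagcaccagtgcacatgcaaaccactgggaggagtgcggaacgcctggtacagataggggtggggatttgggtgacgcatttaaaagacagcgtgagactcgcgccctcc
CXCL8: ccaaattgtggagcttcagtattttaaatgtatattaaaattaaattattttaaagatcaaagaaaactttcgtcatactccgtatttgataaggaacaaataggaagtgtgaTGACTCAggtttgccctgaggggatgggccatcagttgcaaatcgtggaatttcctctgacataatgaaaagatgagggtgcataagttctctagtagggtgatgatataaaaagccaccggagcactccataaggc
TNFAIP3 has decamers at -67 to -58 and at -55 to -46, BIRC3 at -199 to -190 and at -135 to -126, and the heptamer of CXCL8 lies at -137 to -131. The decamer was present in 7 of the 13 windows available for the NF-kappaB list, in 12.8% of windows of genes tested and in 10.8% of all windows. The heptamer was present in 6 of the 22 windows of genes that rose (CXCL8, BBC3, FAS, SFN, SERPINB5 and EDA2R), in 4.56% of windows of genes tested and in 7.76% of all windows. Both motifs were searched on both strands, their matches in these 3 promoters do not overlap each other, and a match is a description of letters rather than of binding.

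Of the immediate early genes, which respond to growth factors and stress within minutes, 2 of 19 tested rose and none fell, beside 0.264% of all genes called. FOSL1, which encodes the AP-1 subunit FRA1, had 108 and 108 CPM in vehicle and 137 and 132 CPM in paclitaxel, a difference of 0.31 ± 0.0589 (limma adjusted p = 0.0374). IER3, a survival gene, had 56.8 and 57.4 CPM against 73.4 and 71.0 CPM, a difference of 0.33 ± 0.0483 (limma adjusted p = 0.00527). Both genes were separated between the groups by more than the spread of the duplicates, which being called likewise favours. Before adjustment 7 members were higher and 2 lower, beside 9.94% and 2.93% of all genes. FOS itself, picked out after its value was seen, was among the lower, with 19.0 and 16.3 CPM against 13.7 and 13.7 CPM (-0.34, limma adjusted p = 0.253). EGR1, picked out likewise, had 49.5 and 51.5 CPM against 50.9 and 48.8 CPM, and its groups overlapped.

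Other genes that rose were mostly in no list. The largest difference of the 35 was that of KRTAP2-3, a hair keratin-associated protein gene on chromosome 17 (41059240 to 41060114) whose family has near-identical copies, so its counts are uncertain. It had 19.2 and 20.3 CPM in vehicle and 31.6 and 35.1 CPM in paclitaxel, a difference of 0.72 ± 0.0846 (limma adjusted p = 0.00108) or 1.65-fold. Its neighbour KRTAP3-1 (41008521 to 41009128) rose from 12.5 and 11.4 CPM to 18.3 and 19.5 CPM, by 0.62 ± 0.0728 (limma adjusted p = 0.00108). SERPINB5, the gene of the epithelial serpin maspin, rose from 103 and 102 CPM to 126 and 128 CPM, by 0.30 (limma adjusted p = 0.0165). CLK3, a member of the kinase family that SM08502 inhibits, had 29.0 and 29.3 CPM in vehicle and 36.4 and 34.4 CPM in paclitaxel, a difference of 0.27 ± 0.053 (limma adjusted p = 0.0436). It was the 1 called member of 15 CLK kinase and SR protein genes tested, beside 0.264% of all genes called. CLK1 differed by 0.30 without passing (limma adjusted p = 0.107). Genes that also passed and were picked out after their values were seen included SFN (0.25), which encodes the p53-induced 14-3-3 sigma protein, the simple keratin gene KRT19 (0.27), HSPA4L (0.26), CEP85L (0.45), ISCU (0.28), NBPF14 (0.41), PKD1P1 (0.59) and RP11-611O2.3 (0.35). NBPF14 and PKD1P1 have near-identical copies, and their counts are uncertain for that reason.

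The 4 genes that fell were HIST2H2AA4, WNT5A, HIPK2 and HIST1H3H. WNT5A, which encodes a non-canonical Wnt ligand and lies on chromosome 3 (55465715 to 55505263), had 85.2 and 86.7 CPM in vehicle and 67.1 and 68.9 CPM in paclitaxel. Both treated libraries were below both controls, and the difference was -0.33 ± 0.0609 (limma adjusted p = 0.0333). HIPK2, a kinase that phosphorylates p53 among other substrates, had 433 and 406 CPM in vehicle and 337 and 357 CPM in paclitaxel (-0.27 ± 0.0521, limma adjusted p = 0.04). Among the genes with the lowest test statistics that did not pass, CBX5, which encodes the heterochromatin protein HP1 alpha, had 948 and 924 CPM against 754 and 832 CPM (-0.24, limma adjusted p = 0.093), and TRRAP, a scaffold of histone acetyltransferase complexes, had 260 and 243 CPM against 205 and 222 CPM (-0.23, limma adjusted p = 0.068).

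Replication-dependent histone genes, which are made in S phase and sit in clusters of near-identical copies, were mostly lower. Of 42 tested (of 89 in the table), 2 fell and none rose, beside 0.264% of all genes called. Before adjustment 23 were lower and none higher, beside 2.93% and 9.94% of all genes. The median difference was -0.15, and in 29 both paclitaxel libraries lay below both vehicle libraries, beside 15.6% of all genes. HIST1H3H, an H3 gene on chromosome 6 (27810051 to 27810536), had 168 and 162 CPM in vehicle and 128 and 129 CPM in paclitaxel, a difference of -0.36 ± 0.0709 (limma adjusted p = 0.0488). HIST2H2AA4, an H2A gene on chromosome 1 (149851061 to 149851594), had 318 and 294 CPM against 240 and 233 CPM, a difference of -0.37 ± 0.0489 (limma adjusted p = 0.00256). Its near-identical copy HIST2H2AA3, looked up after this call was seen, had 273 and 300 CPM against 283 and 291 CPM, so the reads of the pair were divided differently in the groups. The sum of the pair was 592 and 595 CPM in vehicle and 523 in both paclitaxel libraries, a difference of -0.18, and the call on HIST2H2AA4 alone is uncertain for that reason. HIST1H3J, at a low level, had 14.02 and 12.7 CPM against 8.94 and 8.51 CPM (-0.56, limma adjusted p = 0.089).

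**Figure D3:**
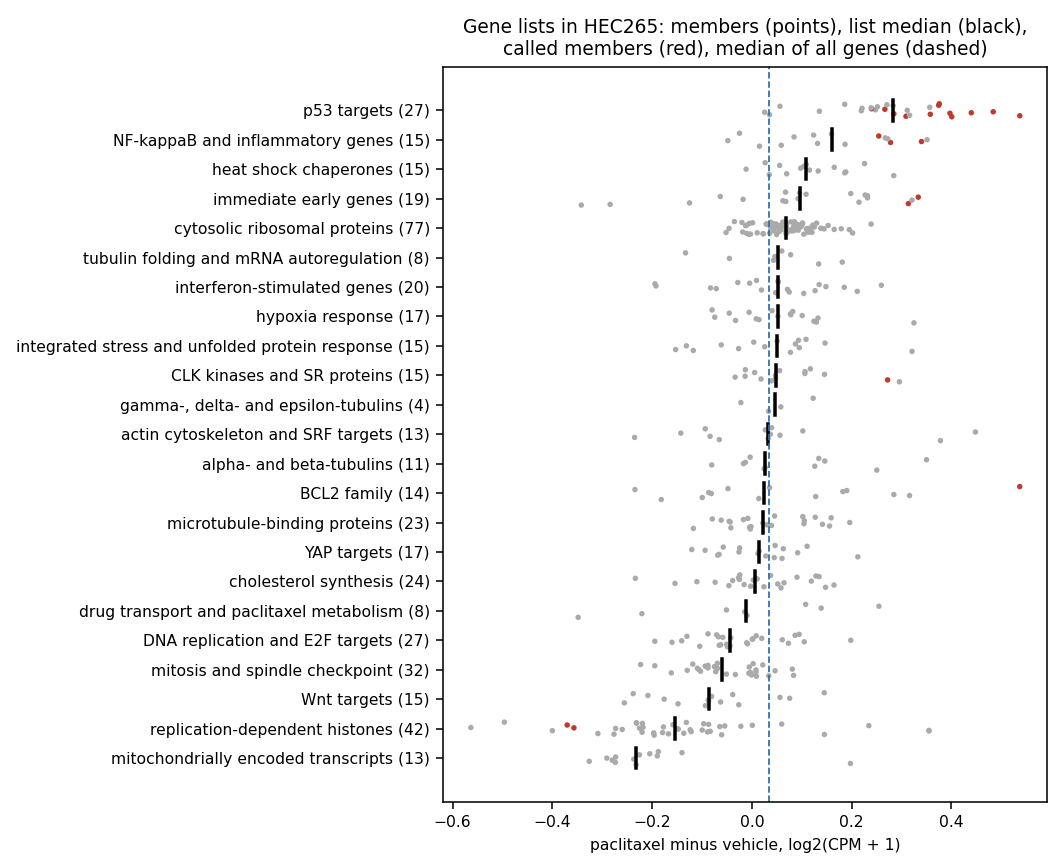
Paclitaxel minus vehicle in log2(CPM + 1) for the tested members of 23 gene lists (points, called members in red), with each list's median as a black bar, the number tested in parentheses and the median of all genes, 0.034, as a dashed line. The p53 targets have the highest median, 0.28, and the mitochondrially encoded transcripts (-0.23, but -0.056 under quantile normalization) and histones (-0.15) the lowest.

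Genes of the drug's own target and of mitosis showed no call as reported, although TUBB3, MAP7 and 3 mitotic genes gained one under other settings. Of 11 alpha- and beta-tubulin genes tested (of 17), none passed, 3 were higher before adjustment beside 9.94% of all genes, and the median was 0.03, about that of all genes. Of the main isotypes, TUBA1B had 2847 and 2903 CPM in vehicle and 2945 and 2904 CPM in paclitaxel, and TUBB had 2244 and 2192 CPM against 2176 and 2208 CPM. The differences of TUBA1B and TUBB were 0.02 and -0.02, and both change sign under other scalings. TUBB4B had 857 and 884 CPM against 956 and 954 CPM (0.13, limma adjusted p = 0.313). TUBB3, the neuronal isotype often discussed in taxane resistance, came closest, with 44.3 and 43.0 CPM against 55.6 and 56.2 CPM (0.35, limma adjusted p = 0.054), and was called under 5 of 17 alternatives. In none of the 4 gamma-, delta- and epsilon-tubulin genes did the difference pass even before adjustment. TTC5, the factor that recognises nascent tubulin for mRNA decay, had 26.4 and 22.6 CPM against 26.6 and 25.1 CPM. Of the 23 microtubule-binding protein genes 2 were higher before adjustment, beside 9.94% of all genes, and none was called as reported. With only the 4 compared libraries 1 of them was called higher.

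Mitotic genes did not pass the test either as reported, although 3 were called lower with only the 4 compared libraries. Of 32 genes of mitosis and the spindle checkpoint none was called, 5 were lower and none higher before adjustment (beside 2.93% and 9.94% of all genes), and the median was -0.06. CCNB1, the gene of mitotic cyclin B1, had 222 and 227 CPM in vehicle and 231 and 220 CPM in paclitaxel, and its groups overlapped. The mitotic kinase gene PLK1 had 146 and 150 CPM against 134 and 130 CPM (-0.16, limma adjusted p = 0.252), INCENP 109 and 104 CPM against 93.3 and 92.6 CPM (-0.19, limma adjusted p = 0.177) and the separase gene ESPL1 59.6 and 55.5 CPM against 48.2 and 50.1 CPM (-0.22, limma adjusted p = 0.194). Of 27 replication and E2F target genes none was called, 4 were lower before adjustment (beside 2.93% of all genes) and the median was -0.04. CDT1, which licenses replication origins, had 61.8 and 62.5 CPM against 55.5 and 55.5 CPM (-0.16, limma adjusted p = 0.206). The 15 Wnt target genes tested had a median of -0.09, 1 higher and 2 lower before adjustment (beside 9.94% and 2.93% of all genes) and no call. NKD1, a feedback inhibitor of Wnt signalling, had 103 and 103 CPM against 85.2 and 86.8 CPM (-0.26, limma adjusted p = 0.093). The drug exporter gene ABCB1 had 8.28 and 10.4 CPM against 6.85 and 7.33 CPM, not past the test (-0.35, limma adjusted p = 0.459).

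The combination against SM08502 gave the same drug, dose and time in 4 other libraries, whose levels do not enter the first difference but which share its filter and its estimate of the spread. There 32 histone genes fell, no p53 target passed the test, and CXCL8, TNFAIP3, IER3 and FOSL1 rose again. With limma, 192 of 13235 genes (1.45%) were called, 71 higher and 121 lower. Before adjustment 1014 (7.66%) were higher and 943 (7.13%) lower. This count rested strongly on single libraries, with 4 calls without SM08502 replicate 1, 15 without SM08502 replicate 2, 1191 without combination replicate 1 and 87 without combination replicate 2. Of the 35 genes called for paclitaxel alone, 26 had the same sign on SM08502, 13 of them with an unadjusted p under 0.05, and 7 were called in both. The 7 genes (20% of the 35 and 3.65% of the 192) were KRTAP2-3, IER3, CXCL8, TNFAIP3 and FOSL1, higher in both, and HIST2H2AA4 and HIST1H3H, lower in both. Over all genes 60.6% had the same sign in the contrasts.

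The p53 targets differed between the contrasts before adjustment. On SM08502 none of the 27 was called, and 2 were higher and 5 lower before adjustment, beside 7.66% and 7.13% of all genes. The median was -0.02 against 0.28 without SM08502. The difference was smaller with SM08502 than without for 26 of 27 and negative for 16. In the interaction test, which asks whether the paclitaxel difference depends on SM08502, 20 of the 27 had a lower value with SM08502 at an unadjusted p under 0.05 and none a higher one, beside 5.24% and 1.9% of all genes. That balance over all genes, 694 lower and 252 higher, became 372 and 552 after median re-centring and 540 and 410 under quantile normalization. After adjustment 1 gene of the 13235 passed, BTG2, at -0.70 (limma adjusted p = 0.00229), and this call was lost without SM08502 replicate 1, where limma called 0 genes and 206 were higher and 606 lower before adjustment. BTG2 had 87.0 and 88.3 CPM with SM08502 and 78.4 and 72.6 CPM with both drugs. CDKN1A had 726 and 750 CPM against 737 and 692 CPM, a paclitaxel difference of -0.05 on SM08502 and an interaction of -0.45 (limma adjusted p = 0.0834). MDM2 had 625 and 637 CPM against 609 and 602 CPM, with an interaction of -0.37 (limma adjusted p = 0.106), and GDF15 had 111 and 114 CPM against 118 and 110 CPM, with an interaction of -0.38 (limma adjusted p = 0.13). In BTG2, CDKN1A and GDF15 both SM08502 libraries were above both libraries with paclitaxel alone.

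**Figure D4:**
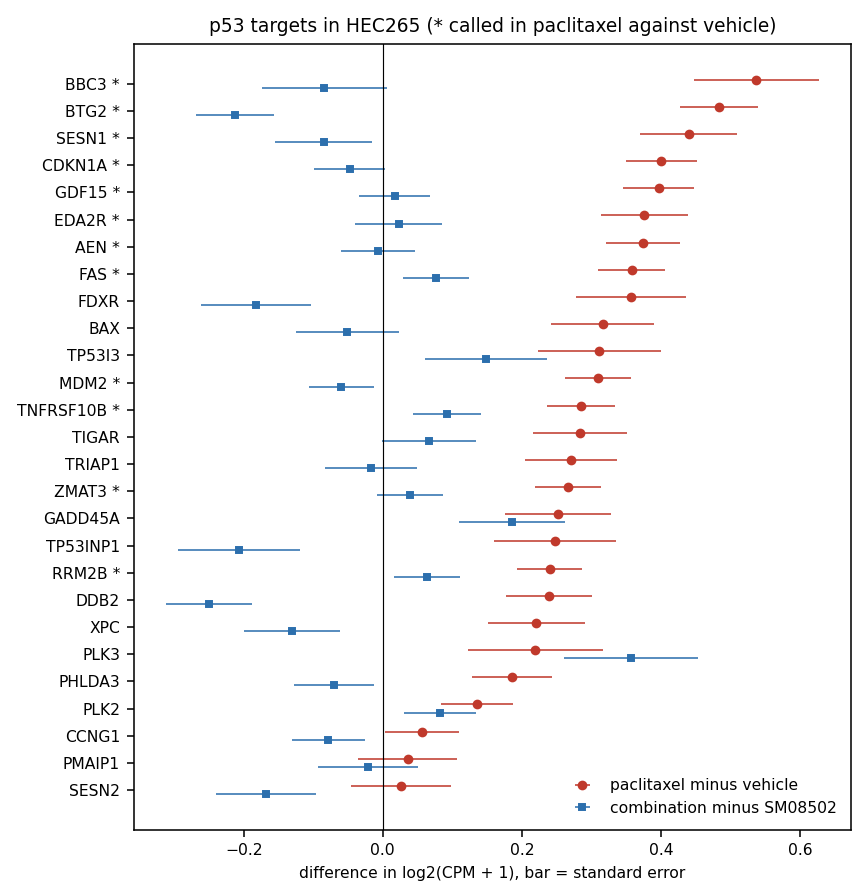
Differences in log2(CPM + 1), with standard errors as bars, for the 27 p53 targets tested, for paclitaxel minus vehicle (red circles) and combination minus SM08502 (blue squares); an asterisk marks the 12 genes called for paclitaxel alone. The red points lie between 0.03 and 0.54 and the blue points around 0, with a median of -0.02.

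The NF-kappaB list had like medians in both contrasts. On SM08502 its median was 0.15 against 0.16 without, and 2 genes were called, beside 1.45% of all genes. Before adjustment 7 were higher, beside 7.66% of all genes, and no member passed the interaction test before adjustment in either direction. CXCL8 had 214 and 224 CPM with SM08502 and 282 and 318 CPM with both drugs, a paclitaxel difference of 0.45 (limma adjusted p = 0.0021). TNFAIP3 had 72.9 and 76.3 CPM against 88.2 and 91.0 CPM, a difference of 0.26 (limma adjusted p = 0.0171), and IER3 had 106 and 111 CPM against 134 and 137 CPM, a difference of 0.31 (limma adjusted p = 0.00558). For these 3 genes the combination libraries were the highest of all 8. BIRC3 had 126 and 127 CPM against 133 and 141 CPM and did not pass (0.11, limma adjusted p = 0.278). Immediate early genes had a median of 0.24, with 7 of 19 called higher (FOSL1, EGR1, IER2, IER3, DUSP1, DUSP5 and KLF6) and FOSL2 lower, beside 1.45% of all genes called. EGR1, DUSP1, IER2, KLF6 and FOSL2 were named after their values were seen. EGR1 rose from 39.2 and 34.2 CPM to 49.5 and 46.5 CPM (0.38, limma adjusted p = 0.00974).

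More histone genes were called with SM08502 than without. Of the 42, 32 fell and none rose, beside 1.45% of all genes called, and the median was -0.38 against -0.15. The number of calls in this contrast rested strongly on single libraries, and the histone and Wnt counts were not recomputed without each. The difference was more negative for 40 of 42, and 17 were lower and none higher in the interaction test before adjustment (5.24% and 1.9% of all genes). None passed that test after adjustment. HIST1H3H had 128 and 133 CPM with SM08502 and 95.7 and 77.1 CPM with both drugs, a difference of -0.60 (limma adjusted p = 0.00189). HIST1H2BF, an H2B gene picked out after its value was seen, had 4.82 and 7.17 CPM against 3.21 and 2.58 CPM (-0.83, limma adjusted p = 0.00974), and the duplicates of SM08502 were wide apart. Of the 15 Wnt targets, 7 fell with paclitaxel on SM08502 (AXIN2, TCF7, NKD1, RNF43, ZNRF3, NOTUM and TNFRSF19), beside 1.45% of all genes called, and the median was -0.26. AXIN2, a feedback scaffold of beta-catenin destruction, was named after its values were seen, as were RNF43, ZNRF3 and NOTUM, and differed by -0.39 on SM08502 (limma adjusted p = 0.00575) and by -0.09 without it. WNT5A, which fell with paclitaxel alone, had 29.5 and 32.1 CPM against 31.6 and 29.1 CPM, and its groups overlapped.

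**Figure D5:**
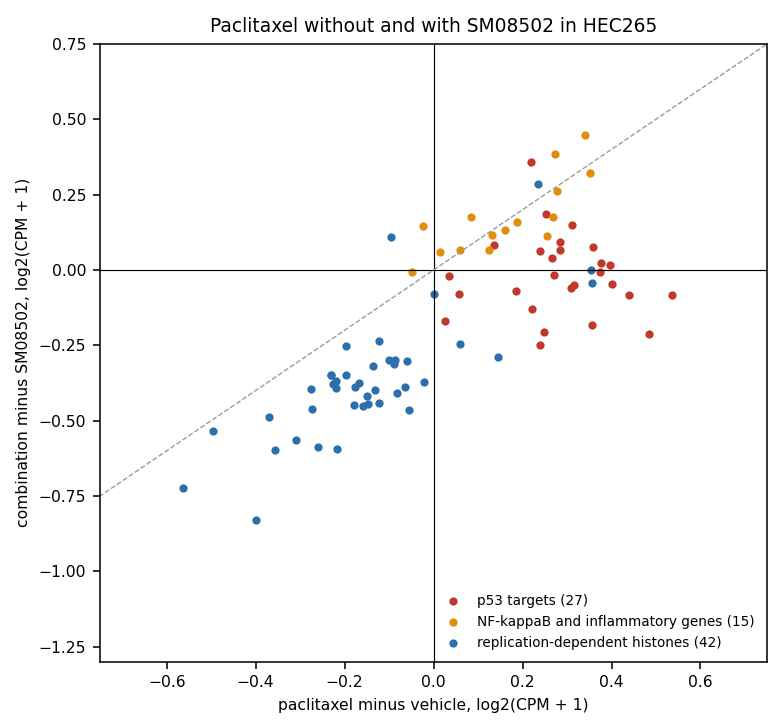
Combination minus SM08502, vertical axis, against paclitaxel minus vehicle, horizontal axis, both in log2(CPM + 1), for the tested p53 targets (27 genes), NF-kappaB and inflammatory genes (15) and histones (42), with the line of equal differences dashed. The p53 targets lie to the right of 0 and near 0 in height, the NF-kappaB genes near the line, and 40 of 42 histones are more negative in height.

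With the contrasts averaged, so that 4 libraries with paclitaxel stood against 4 without, 405 of 13235 genes (3.06%) were called, 240 higher and 165 lower. They included 27 of the 35 genes, 10 of 27 p53 targets, 5 of 15 NF-kappaB genes, 34 of 42 histones (all lower) and 2 of 11 alpha- and beta-tubulins (both higher). The difference on which the 35 genes were chosen enters this average, so nothing is read from their overlap with these calls. In the other contrast of the average the p53 targets had a median of -0.02 and none was called. Re-centring each library on its median turned the balance to 145 higher and 403 lower, and quantile normalization to 158 and 226. Without a single library the count ran from 73 (without SM08502 replicate 1) to 1428 (without combination replicate 1), and it was 92, 108, 139, 141 and 640 without vehicle replicate 1, vehicle replicate 2, paclitaxel replicate 1, SM08502 replicate 2 and combination replicate 2. Without paclitaxel replicate 2 it was 248.

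The 3 other lines received paclitaxel at their own doses, so line and dose cannot be told apart. The median difference of the 31 genes that rose in HEC265, 0.34 there, was 0.23 in SNGM, 0.0018 in Ishikawa and 0.00084 in Ishikawa-S33Y. Of the 35 genes, 32 had the same sign in SNGM, 19 in Ishikawa and 18 in Ishikawa-S33Y. The share of all genes with the same sign was not computed for these lines, so nothing is read from these counts. Medians over all genes tested in HEC265 were 0.013 in SNGM, -0.018 in Ishikawa and 0.014 in Ishikawa-S33Y. The p53 targets had medians of 0.20 in SNGM, -0.07 in Ishikawa and 0.03 in Ishikawa-S33Y. The NF-kappaB list had medians of 0.38 in SNGM, 0 in Ishikawa and -0.0014 in Ishikawa-S33Y. CXCL8 differed by 1.25 ± 0.232 in SNGM and by -0.18 ± 0.232 in Ishikawa, with the spread of all 32 libraries. The HEC265 difference minus the mean of the other lines was tested over 17011 genes, and 7 of the 35 genes had an unadjusted p under 0.05 in the direction of the HEC265 difference, all higher (BTG2, KRTAP2-3, KRTAP3-1, AEN, SERPINB5, SFN and TNFRSF10D), where 0.453% of all genes were higher at that level. The 35 genes were chosen on the HEC265 difference that enters this contrast, so nothing is read from their count. Over all genes 77 were higher and 34 lower before adjustment, and 39 and 77 after median re-centring. For AEN the HEC265 difference exceeded the mean of the other lines by 0.48, and for BTG2 by 0.51. None of the 35 passed after adjustment, so none of them was shown to be particular to HEC265.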

How the data were processed

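RNA was sequenced from 32 cultures of 4 endometrial cancer cell lines, of which the 8 of HEC265 carry the results. Per the labels' protocols, cells attached for 16 h, RNA was purified with RNeasy Plus columns, ribosomal RNA was depleted with FastSelect from 500 ng of HEC265 RNA, and KAPA mRNA HyperPrep libraries were run on a NovaSeq6000. The submitters' processing notes name bcl2fastq, kallisto, STAR and the build GRCh38; the counting program, annotation and strand are not given in the sources used here.

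The deposited values are log10 of CPM plus 1 for 35238 genes, made by the authors; the unit was read from the values, whose back-transformed CPM sum to the same total in every library. Whole reads were recovered for 100% of values (tolerance 0.1 read) and gave the depths. The test had been planned on log2(CPM + 1), to which values were converted with a pseudocount of 1.

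Groups came from the titles. Genes with CPM above 1 in at least 2 fitted libraries were kept, and limma 3.58.1 (R 4.3.3) fitted 1 mean per group to the 8 HEC265 libraries (4 residual and 11.9 prior degrees of freedom, intensity trend, two-sided tests, Benjamini-Hochberg over all genes tested, called under 0.05). The comparison with other lines used all 32 libraries. The procedure was also run on simulated reads with known changes and the same spread setting for every gene and group. Duplicates here differed to unlike degrees between the groups, so that run does not vouch for the calls. Alternatives were other spreads, filters, pseudocount, scalings, moderation, voom on recovered reads, a replicate block and each replicate left out; leaving out mitochondrial genes and filtering over 32 libraries were chosen after seeing the data. The comparison, the 23 gene lists and the naming rule were chosen with earlier results of these data known. The rule named the called genes (at most 10 each way by test statistic), the 12 highest and 12 lowest test statistics among genes with a mean log2(CPM + 1) of at least 3, up to 4 members of each list, and fixed genes of the tubulin, cell cycle, death and transport groups. The values of 1 called gene are not reported here. Lists are described by counts and medians, without a set test. Same-numbered HEC265 libraries did not deviate together (correlations -0.066 to 0.091 over 13235 genes), so the numbers were not taken as pairs. Duplicates differed by more than counting noise in every HEC265 group (chi-square per degree of freedom 2.38 to 11.4). Symbols of 12802 tested genes matched RefSeq (GRCh38.p14), which gave positions and promoters.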

Additional observations from a re-analysis of the deposited data

Results flagged for a closer look

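BTG2 was the gene whose paclitaxel difference depended on SM08502 by an interaction test. Its levels were 46.8 and 43.2 CPM with vehicle, 62.9 and 63.6 CPM with paclitaxel, 87.0 and 88.3 CPM with SM08502 and 78.4 and 72.6 CPM with both drugs. The paclitaxel difference with SM08502 minus that without was -0.697 on the log2 scale (limma adjusted p = 0.00229). The difference was positive in the absence of SM08502 (0.48) and negative in its presence (-0.21, limma adjusted p = 0.0781).

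The clone-named transcript RP11-958N24.2 was the gene whose paclitaxel difference in HEC265 departed from the mean of the other 3 lines, by 1.00 (limma adjusted p = 0.0402 over 17011 genes). It had 0 reads in both vehicle libraries of HEC265, which allows up to 0.134 and 0.116 CPM (3 reads each), 1.40 and 0.591 CPM (35 and 15 reads) with paclitaxel, 1.03 and 0.829 CPM with SM08502 and 0.685 and 0.764 CPM with both drugs. Within HEC265 it was above 1 CPM only in paclitaxel replicate 1 and SM08502 replicate 1, so it entered that test only through treated libraries. There it did not pass (limma adjusted p = 0.0707). The call against the other lines was at a low level in HEC265, and levels in those lines are not given here. This call was lost without vehicle replicate 1, without vehicle replicate 2 and without paclitaxel replicate 1, each of which left 0 genes called, with 60, 58 and 38 genes higher and 17, 32 and 38 lower before adjustment in limma.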

How the results depend on the processing

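Genes called for paclitaxel against vehicle (35 as reported) numbered 1 with the spread and filter of all 32 libraries together (none of the 35), 420 with only the 4 compared libraries (including the 35), 0 without a filter, without the intensity trend or with only the filter over 32 libraries, 15 under quantile normalization, 63 with robust moderation, 22 without mitochondrial genes, and 6 to 36 without 1 replicate. Combination against SM08502 (192) gave 1, 71, 0, 0 and 0 for the first 5 of these and 4 to 1191 without 1 replicate. The averaged effect (405) gave 0 with the 32-library spread and filter, 2 without a filter, 0 without the trend, 0 with the 32-library filter alone and 73 to 1428 without 1 replicate. The interaction (1) gave 0 at those 4 settings, 3 under quantile normalization, 5 with robust moderation, 4 with voom, 2 without mitochondrial genes and 0 to 462 without 1 replicate. HEC265 against other lines (1) gave 3 without a filter, 0 with a stricter filter, median re-centring, voom or a replicate block, and 0 to 1 without 1 HEC265 replicate. The replicate block gave 47, 235, 469 and 1 calls within HEC265. The causes were not tested.

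Over 130 genes and 2203 values at other settings, 1809 kept direction and side of the threshold, 306 lost the call, 65 gained it and 23, in 11 uncalled genes, changed sign. With median re-centring these were TUBG1 -0.0167, TUBA1C -0.0235, TUBA1B -0.0257, BCL2L1 -0.0363 and CCNB1 -0.0420. Quantile normalization gave TUBG2 -0.00416 and TUBB 0.0145, and leaving out mitochondrial genes BCL2L1 -0.00223 and CCNB1 -0.00791. Leaving out 1 replicate gave TUBG1 -0.0171 to 0.0842, TUBG2 -0.0843 to 0.200, TUBB -0.0337 to 3.53e-05, TUBD1 -0.0674 to 0.0233, CCNB1 -0.0266 to 0.0431, ISG15 -0.101 to 0.523, TTC5 -0.0291 to 0.184, BCL2L1 -0.0351 to 0.0629 and TUBB6 -0.133 to 0.126.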

Other observations

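Heat shock chaperone genes, which refold damaged proteins, had no call, but 14 of 15 differed upward, beside 8278 of 13235 genes tested, and in 14 both paclitaxel libraries lay above both vehicle libraries, beside 32.7%, with a median difference of 0.11 beside 0.034 over all genes. HSPA8, the constitutive HSP70 gene, had 2212 and 2211 CPM in vehicle and 2517 and 2516 CPM in paclitaxel (0.19, limma adjusted p = 0.25), and HSPH1 had 338 and 364 CPM against 405 and 395 CPM (0.19, limma adjusted p = 0.166). On SM08502 the list median was -0.03. Of 77 cytosolic ribosomal protein genes none was called by limma, 66 differed upward, 13 were higher and none lower before adjustment (9.94% and 2.93% of all genes), and the median was 0.07.

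Mitochondrially encoded transcripts differed the other way. Of 13, none was called by limma, and 1 was lower before adjustment (2.93% of all genes). In 12 both paclitaxel libraries lay below both vehicle libraries (15.6% of all genes), and the median was -0.23. Under quantile normalization the median was -0.056, and with only the 4 compared libraries 11 of the 13 were called lower. MT-CO2 had 6278 and 6850 CPM against 4797 and 5705 CPM (-0.33, limma adjusted p = 0.35). On SM08502 the median was 0.09. Interferon-stimulated genes (20 tested) had no call and no member past an unadjusted p under 0.05 in limma, with a median of 0.05. Of 17 YAP targets 1, of 24 cholesterol synthesis genes 3, of 15 integrated stress and unfolded protein response genes 4, of 17 hypoxia genes 3, of 13 actin and SRF genes 3 and of 8 drug transport genes 0 had an unadjusted p under 0.05 in either direction, beside 1704 of 13235 genes tested, and none of these lists held a call.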
